A study of Rattus norvegicus with 8 samples.

Results

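The integrin subunit genes described here are 8 genes of vascular smooth muscle, Itga1, Itga5, Itga7, Itga8, Itgav, Itgb1, Itgb3 and Itgb5, out of 11377 genes tested on rat arrays. They were taken as the probe sets annotated to exactly 1 of these symbols, with the brightest probe set standing for the gene and the others kept as a check. The 8 genes had 16 probe sets, and each gene's brightest passed the filter on dim probe sets (a mean of at least 4.81 log2). RNA came from aortic smooth muscle cells (thoracic aorta) of male Sprague-Dawley rats, grown for 2 passages in medium with 10% serum. Cells received siRNA against Giver (siGiver) or non-targeting siRNA (siNTC) for 48 h, then 100 nM angiotensin II (Ang II) or PBS for 3 h. This gave 4 groups of 2 arrays each, namely siGiver with Ang II, siGiver with PBS, siNTC with Ang II and siNTC with PBS. Giver is a long non-coding RNA, and Ang II a hormone that constricts arteries. The design asks how the Giver siRNA changes transcript levels and the response to Ang II. All groups were transfected cultured cells. The labels give neither the number of animals nor the origin of a group's arrays, and the p-values therefore reflect array-to-array spread that may be technical. The knockdown itself was not analysed here.

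Integrins are receptors of the cell surface that bind the extracellular matrix outside the cell and the actin cytoskeleton inside it. Each is a pair of an alpha and a beta subunit, and the pair sets which matrix protein is bound. In the arterial wall, integrins with the beta 1 subunit attach smooth muscle cells to collagen, laminin and fibronectin, and those with alpha v bind vitronectin and osteopontin. Through adaptors such as talin, kindlin and vinculin they pass contractile force to the matrix.

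Array medians lay between 6.15 and 6.19 log2, and the 2 arrays of each group correlated at 0.998 over all probe sets. Arrays have no read depth, and their number limits the precision. The control probe sets for the 3' end of beta-actin exceeded those for the 5' end by 0.23 to 0.30 log2 on every array. For GAPDH the 3' minus 5' difference went the other way, at -0.15 to -0.06 log2. All 10 smooth muscle markers passed the filter, and none of the 7 endothelial markers on the array did. Cd68, Cd14 and Lyz2 passed among 8 macrophage and leukocyte markers, while the pan-leukocyte gene Ptprc was at 3.35 log2 and the macrophage gene Adgre1 at 2.69 log2, both below the filter. All 7 fibroblast markers passed, and whether fibroblasts were among the cultured cells was not tested. The 3 platelet markers on the array (Itga2b, Pf4 and Ppbp) passed too. So did Sox10 among 3 Schwann and neural markers and Myog and Acta1 among 5 skeletal muscle markers. Passing the filter therefore does not show that a cell type was present.

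Integrin transcripts changed in different directions. Itga5, the alpha subunit of the fibronectin receptor, was higher in siGiver than siNTC cells, and its response to Ang II was larger in siGiver cells by the test of the interaction. Itgb5 was lower in siGiver cells by its brightest probe set, with and without Ang II. Itga1 and Itga8 fell with Ang II in siNTC cells. Of the 8 genes, 7 changed in at least 1 of the 4 simple comparisons, and Itgb3 did not pass in any, while 56.1% of all genes changed in at least 1. A gene counted as changed at a limma adjusted p under 0.05 over all genes tested.

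In PBS, siGiver cells had 1 integrin transcript higher (Itga5) and 4 lower (Itga7, Itgav, Itgb1 and Itgb5) than siNTC cells, or 5 of 8. Of all genes, 35% were called, 16% higher and 19.1% lower. The median difference over the 8 genes was -0.16 log2, against -0.005 over all genes. With Ang II, 4 were higher (Itga1, Itga5, Itga7 and Itga8) and Itgb5 was lower, again 5 of 8, while 44.3% of all genes were called, 19.5% higher and 24.8% lower. The median was 0.13 log2, against -0.026 over all genes. Ang II raised 3 of the 8 in siGiver cells (Itga5, Itga7 and Itgb1) and lowered none, while 16.3% of all genes were called, 9.11% higher and 7.17% lower. It lowered 2 (Itga1 and Itga8) and raised none in siNTC cells, while 6.14% of all genes were called, 3.96% higher and 2.17% lower. The shares of the 8 genes called were not tested against those over all genes. In bulk RNA, fewer cells of a type and less RNA per cell cannot be told apart.

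**Figure D1:**
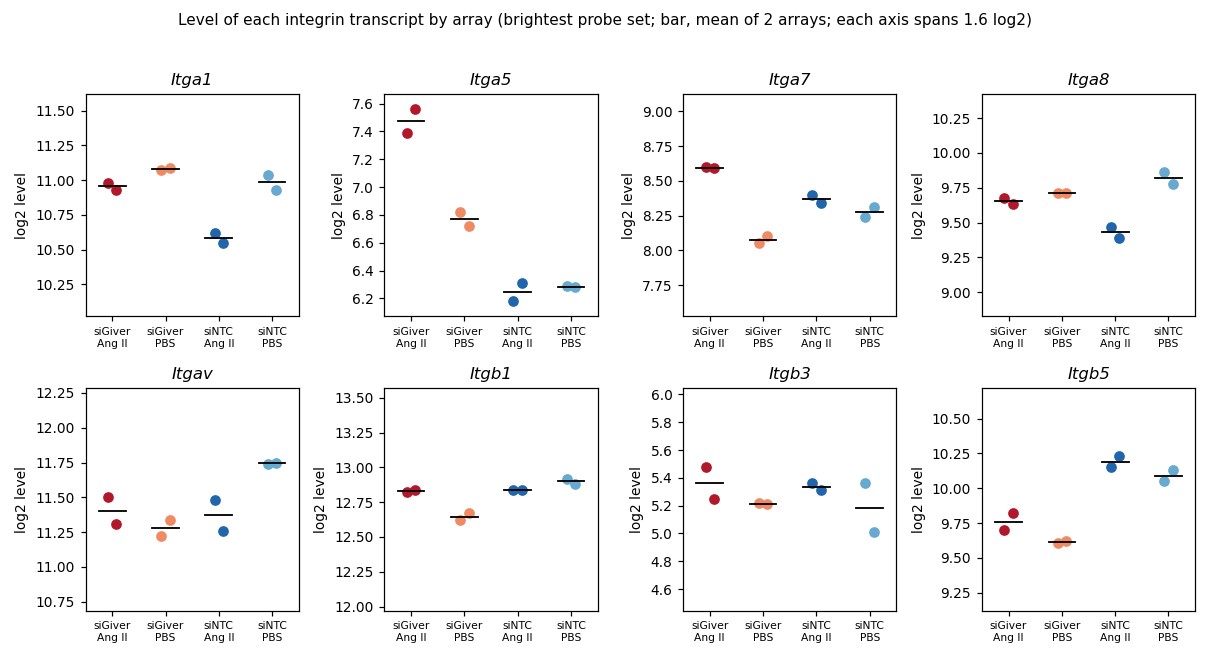
Log2 level of the brightest probe set of each integrin gene on the 8 arrays. Points are arrays, bars are means of the 2 arrays of a group, and each vertical axis spans 1.6 log2 with its own start, since levels of different probe sets are not comparable. Itga5 is highest in siGiver cells with Ang II (7.39 and 7.56), and Itgav highest in siNTC cells with PBS (11.74 and 11.75).

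Itga5 pairs with beta 1 to form the main fibronectin receptor, through which cells assemble fibronectin fibrils. The gene lies on rat chromosome 7 at 136358097 to 136381305 in RefSeq's GRCr8 annotation, an assembly used here for names and positions and not for making the array values. Its probe set 1385649_at read 7.39 and 7.56 log2 in siGiver cells with Ang II, 6.82 and 6.72 in siGiver cells with PBS, 6.18 and 6.31 in siNTC cells with Ang II, and 6.29 and 6.28 in siNTC cells with PBS. The siGiver arrays were all above the siNTC arrays, siGiver with Ang II stood above siGiver with PBS, and the siNTC groups overlapped. Itga5 was higher in siGiver than siNTC cells by 1.23 ± 0.073 log2 with Ang II (SE, 2 arrays per group), or 2.35-fold (limma adjusted p = 2.3e-05). In PBS it was higher by 0.49 ± 0.073 log2 (limma adjusted p = 0.00181). Ang II raised it by 0.71 ± 0.073 log2 in siGiver cells (limma adjusted p = 0.000803), where 98.8% of genes tested changed no more than it did in size. In siNTC cells the Ang II difference was -0.04 log2, with a 95% interval of -0.21 to 0.13 (limma adjusted p = 0.82). The interaction, or the effect of Ang II under siGiver less its effect under siNTC, was 0.74 ± 0.10 log2 (limma adjusted p = 0.00734). The gene has 1 probe set here, so no other probe set could be set beside it.

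Itgb1 encodes the beta subunit shared by the alpha 1, alpha 5, alpha 7 and alpha 8 receptors, and its transcript moved within a narrow range. Its probe set 1368819_at read 12.82 and 12.84 log2 in siGiver cells with Ang II, 12.62 and 12.67 in siGiver cells with PBS, 12.84 and 12.84 in siNTC cells with Ang II, and 12.92 and 12.88 in siNTC cells with PBS. The siGiver PBS group was the lowest of the 4, and the Ang II groups of both siRNAs overlapped. In PBS Itgb1 was lower in siGiver than siNTC cells by -0.25 ± 0.044 log2 (limma adjusted p = 0.00359), and Ang II raised it by 0.19 ± 0.044 log2 in siGiver cells (limma adjusted p = 0.0281). The second probe set, 1387346_at, gave -0.22 and 0.30 log2 for the same differences, and both passed among all probe sets. The rise with Ang II was not called without the filter, with only the siGiver arrays in the fit, or when any 1 of the 4 siGiver arrays was left out. With Ang II the siRNA arms differed by -0.01 log2 (95% interval -0.11 to 0.10), a value that turned to 0.018 with cyclic loess.

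The promoters of Itga5 and Itgb1 are shown because the transcripts of this receptor pair were the members raised by Ang II in siGiver cells for which the RefSeq table (GRCr8) holds a sequence, which it does for 6 of the 8 genes. Each is the 250 bases before the gene's annotated start, read along the gene's own strand, chr7:136381306-136381555 on the minus strand for Itga5 and chr19:73602027-73602276 on the plus strand for Itgb1. Capitals mark matches, on either strand, to the GC box bound by Sp1 (GGGCGG) and the TEAD site (CATTCC).
Itga5: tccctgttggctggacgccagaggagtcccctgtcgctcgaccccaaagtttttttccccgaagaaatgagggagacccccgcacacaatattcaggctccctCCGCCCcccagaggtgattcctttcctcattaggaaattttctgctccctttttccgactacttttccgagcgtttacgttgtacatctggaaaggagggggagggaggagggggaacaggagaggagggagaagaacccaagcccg
Itgb1: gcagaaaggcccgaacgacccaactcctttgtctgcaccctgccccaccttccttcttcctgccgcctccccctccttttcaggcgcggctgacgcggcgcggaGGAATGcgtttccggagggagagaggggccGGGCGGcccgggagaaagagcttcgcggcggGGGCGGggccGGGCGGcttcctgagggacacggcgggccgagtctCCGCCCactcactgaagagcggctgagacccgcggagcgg
Itga5 has 1 GC box, 147 to 142 bases before its start. Itgb1 has 4 GC boxes and 1 TEAD match, the last at 146 to 141 bases. A GC box stood in 3 of the 6 promoters (also in Itgav) and in 30.5% of 33465 promoter windows of the same length, and a TEAD match in 1 of the 6 and in 12.1% of all windows. The AP-1 site TGANTCA matched none of the 6, against 6.34% of all windows, and the CArG box, the site of serum response factor in muscle genes, none, against 1.5%. The motifs do not overlap one another in these 2 sequences, and a match is a description of letters and not of binding.

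Itga7, the laminin-binding alpha subunit of muscle, was the other alpha gene among the 8 members that Ang II raised in siGiver cells. Its probe set 1370937_a_at read 8.60 and 8.59 log2 in siGiver cells with Ang II, 8.05 and 8.10 in siGiver cells with PBS, 8.40 and 8.34 in siNTC cells with Ang II, and 8.24 and 8.31 in siNTC cells with PBS. The siGiver groups were the highest and the lowest of the 4, with both siNTC groups between them. Ang II raised Itga7 by 0.53 ± 0.048 log2 in siGiver cells (limma adjusted p = 0.000437), and the difference in siNTC cells was 0.09 ± 0.048 log2 (limma adjusted p = 0.294). The difference between these Ang II effects was 0.43 ± 0.068 log2 (limma adjusted p = 0.0123). Against siNTC cells, siGiver cells had 0.23 ± 0.048 log2 more Itga7 with Ang II (limma adjusted p = 0.00637). In PBS the same difference was -0.20 ± 0.048 log2 (limma adjusted p = 0.0144), the opposite sign. The PBS call was lost with the mean of the gene's probe sets (-0.16 log2) and when siGiver PBS replicate 1 or siNTC PBS replicate 2 was left out. A dimmer probe set, 1388240_a_at, rose with Ang II in siGiver cells by 0.63 log2 (limma adjusted p = 0.00391 among all probe sets) and had an interaction of 0.36 log2 that did not pass. Its siRNA differences, -0.11 log2 in PBS and 0.25 log2 with Ang II, did not pass either. The third probe set, 1371214_at, lay at 3.94 log2, below the filter. It gave -0.32 log2 for Ang II in siGiver cells, the opposite sign, which did not pass.

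Itga1, the collagen-binding alpha subunit abundant in smooth muscle, stood lowest in siNTC cells with Ang II. Its probe set 1387144_at read 10.98 and 10.93 log2 in siGiver cells with Ang II, 11.07 and 11.09 in siGiver cells with PBS, 10.62 and 10.55 in siNTC cells with Ang II, and 11.04 and 10.93 in siNTC cells with PBS. The siNTC Ang II arrays were below all others. In siNTC cells Ang II lowered Itga1 by -0.40 ± 0.054 log2 (limma adjusted p = 0.00636), a call lost when siNTC Ang II replicate 2 was left out (-0.36 log2). In siGiver cells the Ang II difference was -0.13 ± 0.054 log2 (limma adjusted p = 0.149), and the difference between these effects, 0.27 ± 0.076 log2, did not pass (limma adjusted p = 0.0809). With Ang II, siGiver cells had 0.37 ± 0.054 log2 more Itga1 than siNTC cells (limma adjusted p = 0.00116), while in PBS the difference was 0.10 log2 (limma adjusted p = 0.217).

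Itga8, whose receptor with beta 1 binds fibronectin and nephronectin and marks contractile smooth muscle, also stood lowest in siNTC cells with Ang II. Its probe set 1383398_at read 9.68 and 9.63 log2 in siGiver cells with Ang II, 9.71 and 9.71 in siGiver cells with PBS, 9.47 and 9.39 in siNTC cells with Ang II, and 9.86 and 9.78 in siNTC cells with PBS. The siNTC groups were the lowest and the highest, and the siGiver groups lay between them. Ang II lowered Itga8 by -0.39 ± 0.051 log2 in siNTC cells (limma adjusted p = 0.00576), and the difference in siGiver cells was -0.06 log2, turning to 0.048 with the mean of the gene's probe sets. The difference between these effects was 0.33 ± 0.072 log2 (limma adjusted p = 0.0389), and it was not called without the filter, with every probe set tested on its own, or when any 1 of the 8 arrays was left out. With Ang II, siGiver cells had 0.22 ± 0.051 log2 more Itga8 than siNTC cells (limma adjusted p = 0.01), a call lost without siGiver Ang II replicate 1 or siNTC Ang II replicate 2. The dimmer probe set 1385354_at gave -0.13 log2 for Ang II in siNTC cells and 0.13 log2 between the siRNA arms with Ang II, and neither passed.

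In the siNTC Ang II arrays, where Itga1 and Itga8 were lower, the summed smooth muscle and fibroblast markers were also lower. The summed macrophage and leukocyte markers were higher there. The summed linear intensity of the 10 smooth muscle markers was 34400 to 34560 in siNTC Ang II arrays, against 37050 to 37120 in siNTC PBS arrays, with 3 markers lower and none higher. That of the 7 fibroblast markers was 5278 to 5294 in siNTC Ang II arrays, against 6117 to 6479 in siNTC PBS arrays, with 4 lower and none higher. That of the 8 macrophage and leukocyte markers was 537 to 550 in siNTC Ang II arrays, against 475 to 497 in siNTC PBS arrays, with none of the 3 tested called. In siGiver cells the smooth muscle sum was 39340 to 39720 with Ang II and 38780 to 39470 with PBS, the fibroblast sum 5869 to 6255 with Ang II and 6753 to 6870 with PBS, and the macrophage and leukocyte sum 422 to 437 with Ang II and 478 to 492.5 with PBS. These sums rest on a few bright probe sets, Tagln and Cald1 making up 72.9% of the smooth muscle sum, Lum 89.6% of the fibroblast sum and Cd14 68.5% of the macrophage and leukocyte sum. In siNTC cells the smooth muscle markers lowered by Ang II were Myh11 at -0.29, Cald1 at -0.23 and Acta2 at -0.19 log2. The rest did not pass. They were Synpo2 at -0.21, Myocd at -0.07, Tagln at -0.015, Smtn at -0.014, Cnn1 at -0.001, Lmod1 at 0.08 and Des at 0.09 log2. The part of these marker lists in the integrin differences was not tested.

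Itgav encodes the alpha subunit that pairs with beta 1, beta 3 or beta 5 to bind vitronectin, osteopontin and latent TGF-beta. Its probe set 1393226_at read 11.50 and 11.31 log2 in siGiver cells with Ang II, 11.22 and 11.34 in siGiver cells with PBS, 11.48 and 11.26 in siNTC cells with Ang II, and 11.74 and 11.75 in siNTC cells with PBS. The siNTC PBS arrays were above all others, and the other 3 groups overlapped. In PBS Itgav was lower in siGiver than siNTC cells by -0.47 ± 0.089 log2 (limma adjusted p = 0.00559), a difference of -0.22 log2 with its probe sets averaged. The other probe sets alone gave -0.13 and -0.06 log2 and did not pass. In siNTC cells Ang II gave -0.38 ± 0.089 log2, at the edge of the threshold (limma adjusted p = 0.0507). The call was made with a filter at the 50th percentile, cyclic loess, or trended and robust moderation. The interaction of 0.51 ± 0.13 log2 did not pass (limma adjusted p = 0.0602), but did with the 50th percentile filter, with its probe sets averaged (0.37 log2), and without siNTC Ang II replicate 1. Another probe set, 1386581_at, rose with Ang II in siGiver cells by 0.32 log2 (limma adjusted p = 0.0179 among all probe sets). With Ang II the same probe set was higher in siGiver than siNTC cells by 0.23 log2 (limma adjusted p = 0.0268 among all probe sets), where the brightest probe set gave 0.04 log2 (limma adjusted p = 0.762).

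Itgb5, the partner of alpha v in a vitronectin receptor, separated the siRNA arms. Its probe set 1398358_a_at read 9.70 and 9.82 log2 in siGiver cells with Ang II, 9.61 and 9.62 in siGiver cells with PBS, 10.15 and 10.23 in siNTC cells with Ang II, and 10.05 and 10.13 in siNTC cells with PBS. Every siGiver array was below every siNTC array. Itgb5 was lower in siGiver cells by -0.48 ± 0.059 log2 in PBS (limma adjusted p = 0.000798) and by -0.43 ± 0.059 log2 with Ang II (limma adjusted p = 0.000877), and the interaction was 0.04 log2 (95% interval -0.15 to 0.24). The Ang II differences of 0.15 log2 in siGiver and 0.10 log2 in siNTC cells did not pass. The siRNA difference did not pass in its dimmer probe sets, which gave -0.12 and -0.19 log2 in PBS and 0.05 and 0.04 log2 with Ang II. Those probe sets rose with Ang II in siGiver cells, by 0.33 log2 for 1370802_at (limma adjusted p = 0.0432 among all probe sets) and 0.42 log2 for 1396133_at (limma adjusted p = 0.0243 among all probe sets). With the mean of the probe sets the siRNA difference was -0.26 log2 in PBS, and -0.11 log2 with Ang II, which did not pass.

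Itgb3, the beta subunit of the alpha v osteopontin and vitronectin receptor, was measured close to the filter. Its probe set 1397317_at read 5.48 and 5.25 log2 in siGiver cells with Ang II, 5.22 and 5.21 in siGiver cells with PBS, 5.36 and 5.31 in siNTC cells with Ang II, and 5.36 and 5.01 in siNTC cells with PBS. The siNTC groups overlapped, as did the siRNA arms under each treatment. The siRNA differences were 0.03 log2 in PBS and 0.03 log2 with Ang II, and the Ang II differences 0.16 log2 in siGiver and 0.15 log2 in siNTC cells. Their 95% intervals reached from -0.24 to 0.42 log2 in all, so changes within these bounds could not be told from 0.

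**Figure D2:**
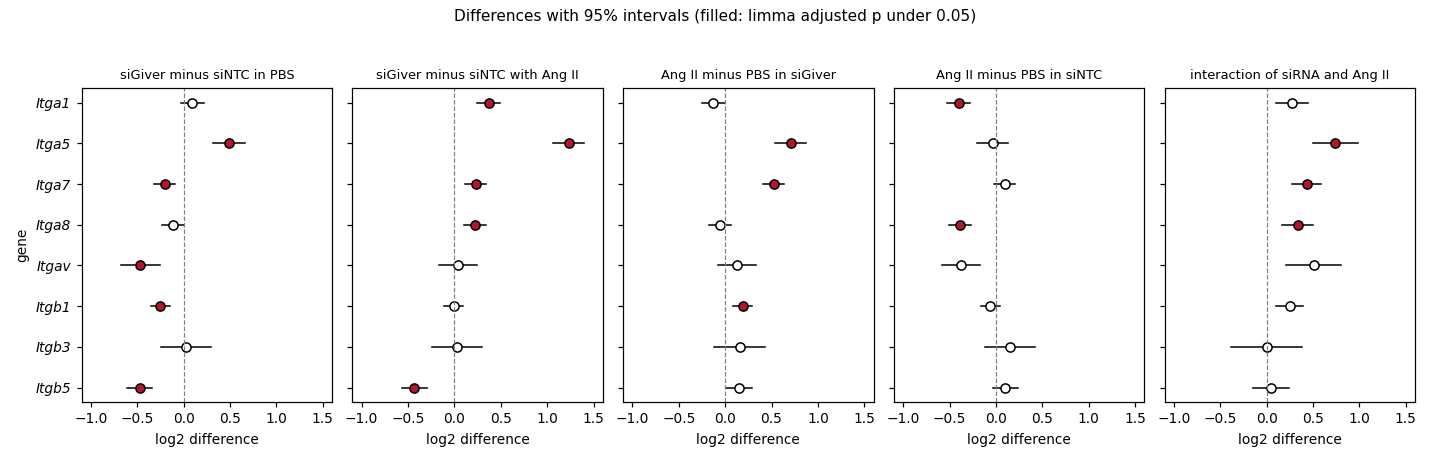
Log2 difference of each integrin gene in the 4 simple comparisons and the interaction, with 95% intervals from limma over 8 arrays. Filled points passed at an adjusted p under 0.05. Itga5 reaches 1.23 log2 between siRNA arms with Ang II, and the interaction estimates of all 8 genes lie between 0.002 and 0.74.

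The interaction was above 0 for all 8 genes, with a median of 0.30 log2, where 44.6% of all genes had a value above 0 and their median was -0.022. It passed for 3 of the 8, Itga5, Itga7 and Itga8, each upward, while 6.21% of all genes were called, 3.35% higher and 2.87% lower. The lists of other integrin subunits, matrix ligands and adaptors given below also had median interactions above 0, of 0.074, 0.22 and 0.142 log2. In these lists 2 of 8, 5 of 20 and 5 of 27 genes passed, all upward. An upward interaction was therefore not particular to the 8 integrin genes. All 15 probe sets of the 8 genes that passed the filter had a positive value. Past the filter, the brightest and the dimmer probe sets therefore pointed the same way. The values of Itgb3 (0.002 log2) and of the brightest Itgb5 probe set (0.044 log2) changed sign when certain single arrays were left out. The third probe set of Itga7, below the filter, gave -0.213 log2. The probe sets of a gene, of which 5 genes had more than 1 past the filter, are not independent of each other, and which transcript each one targets is not known here. Of the 18 member differences that passed in all, 12 belonged to those genes, and in 3 of the 12 another probe set passed in the same direction. In none did another probe set pass the opposite way. The sign was shared by all probe sets past the filter in 11, the exception being the siRNA difference of Itgb5 with Ang II. The Itga7 probe set below the filter had the opposite sign in each Itga7 difference that passed, and did not pass itself.

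**Figure D3:**
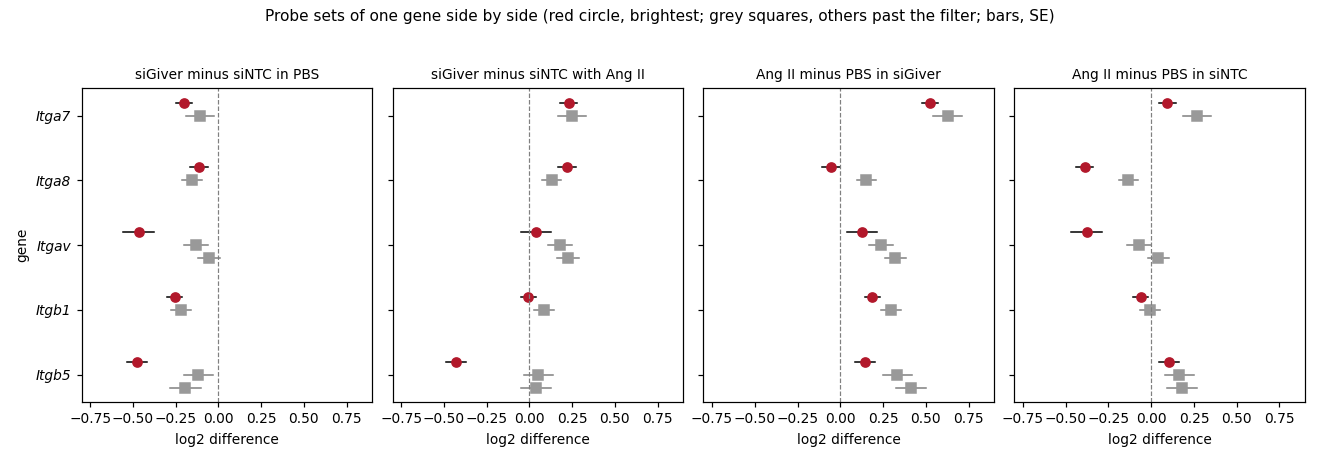
Log2 differences of the probe sets of the 5 integrin genes with more than 1 past the filter, in the 4 simple comparisons. Red circles are the brightest probe sets, grey squares the others, and bars are SE of the fit. The brightest probe set of Itgb5 lies at -0.48 and -0.43 between siRNA arms, apart from its other probe sets.

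Of 18 other integrin subunit genes in a list, 14 were on the array and 8 passed the filter. Itga3, a laminin-binding alpha subunit, and Itga11, a collagen-binding one, were the genes that moved most. Itga3 averaged 9.15 log2 in siGiver cells with Ang II, 8.67 in siGiver cells with PBS, 8.76 in siNTC cells with Ang II and 8.78 in siNTC cells with PBS. Ang II raised it by 0.48 ± 0.055 log2 in siGiver cells (limma adjusted p = 0.0014), and its interaction was 0.50 ± 0.078 log2 (limma adjusted p = 0.0123). Itga11 fell with Ang II in siNTC cells by -0.41 ± 0.056 log2 (limma adjusted p = 0.00702) and was higher in siGiver than siNTC cells with Ang II by 0.60 ± 0.056 log2 (limma adjusted p = 0.000153). Its interaction was 0.46 ± 0.079 log2 (limma adjusted p = 0.0167). In PBS, Itgad and Itgae, subunits of leukocyte integrins, were higher in siGiver cells by 0.25 and 0.15 log2 and no other passed. With Ang II the siRNA difference passed for Itga3 and Itga11 alone among the 8. The leukocyte genes Itgal, Itgam and Itgb2, and Itgb4, Itgb6 and Itga9, were below the filter.

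Matrix ligands of integrins differed between siRNA arms in both directions in PBS, and were mostly higher in siGiver cells with Ang II. Of 20 tested from a list of 24, 5 were higher and 8 lower in siGiver than siNTC cells in PBS. With Ang II, 12 were higher and 3 lower. Of all genes, 16% were higher and 19.1% lower in PBS, and 19.5% higher and 24.8% lower with Ang II. The shares of the list were not tested against these. Mfge8, a secreted ligand of the alpha v integrins, was higher by 1.88 ± 0.056 log2 in PBS and 1.93 ± 0.056 log2 with Ang II. The tenascin gene Tnc, whose product binds alpha v and other integrins, was lower in PBS by -0.58 ± 0.046 log2 and higher with Ang II by 0.37 ± 0.046 log2. The laminin gene Lamb1 was lower by -0.46 ± 0.044 log2 in PBS and by -0.29 ± 0.044 log2 with Ang II. Nid1, encoding the basement membrane protein nidogen, was higher by 0.46 ± 0.041 log2 in PBS and 0.71 ± 0.041 log2 with Ang II. The basement membrane genes Col4a2, at 0.44 ± 0.042 log2, and Lama4, at 0.63 ± 0.066 log2, were also higher with Ang II.

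Ang II raised 6 of the 20 ligands and lowered none in siGiver cells, and raised 1 and lowered 4 in siNTC cells. Over all genes the shares were 9.11% higher and 7.17% lower in siGiver cells, and 3.96% higher and 2.17% lower in siNTC cells. In siGiver cells Tnc rose by 1.08 ± 0.046 log2, Ccn1, a matricellular ligand of alpha v integrins, by 1.14 ± 0.070 log2, the laminin gene Lamc1 by 0.34 log2 and the osteopontin gene Spp1 by 0.26 log2. In siNTC cells Ccn1 rose by 0.41 ± 0.070 log2 while Nid1, Fbn1 and Lama2 fell by 0.34, 0.28 and 0.40 on the log2 scale. Tnc at 0.95 ± 0.065 log2, Ccn1 at 0.73 log2, Lama5 at 0.47 log2 and Lamc1 at 0.32 log2 were among 5 ligands whose interaction passed. Fn1, the ligand of the Itga5 receptor, did not pass in any of the comparisons, with differences of -0.005 log2 in PBS and 0.10 log2 with Ang II between siRNA arms. Its probe set averaged 14.22 log2, near the highest value on any array (14.61 log2). Whether it could report a rise at that level was not tested.

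Genes of a list of integrin adaptors and focal adhesion proteins, most of which couple integrins to actin, were higher in siGiver cells with Ang II more often than lower. Of 27 tested from a list of 29, 15 were higher and 5 lower with Ang II, and 9 higher and 5 lower in PBS. Of all genes, 19.5% were higher and 24.8% lower with Ang II, and 16% higher and 19.1% lower in PBS. The shares of the list were not tested against these. With Ang II, Vcl (vinculin) was higher by 0.64 ± 0.048 log2, Zyx (zyxin) by 0.54 ± 0.043 log2, the LIM adaptor gene Lims2 by 0.61 ± 0.057 log2 and Itgbl1, which encodes a secreted integrin-like protein and not an adaptor, by 0.44 ± 0.044 log2. In PBS the parvin genes parted, Parvb being higher by 0.92 ± 0.11 log2 and Parva lower by -0.53 ± 0.052 log2. Ptk2, the focal adhesion kinase gene, was lower by -0.46 ± 0.053 log2 and the kinase gene Src higher by 0.43 ± 0.061 log2. Ang II raised 6 adaptors in siGiver cells, among them the kindlin gene Fermt2 by 0.36 ± 0.043 log2, Zyx by 0.31 log2, Vcl by 0.24 log2 and Bcar1 by 0.30 log2. In siNTC cells it lowered Itgbl1, Tns3 and Tns1 by 0.31, 0.27 and 0.26 on the log2 scale and raised none. The interaction passed for 5 adaptors, all upward, among them Vcl at 0.41 log2, Fermt2 at 0.31 log2, Zyx at 0.28 log2 and the talin gene Tln1 at 0.30 log2.

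**Figure D4:**
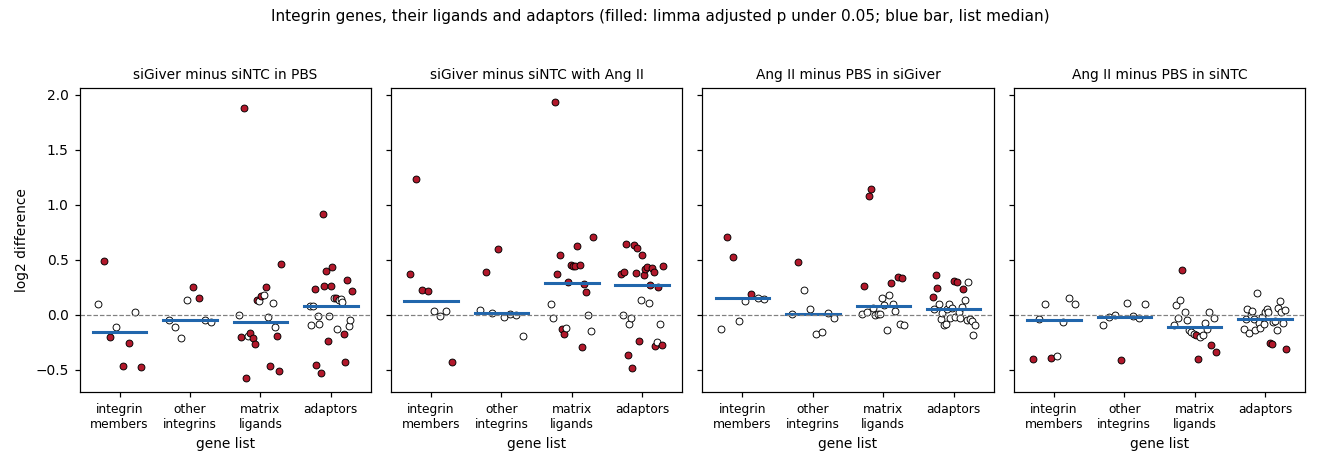
Log2 differences of the 8 integrin genes, 8 other integrin genes, 20 matrix ligands and 27 adaptors in the 4 simple comparisons. Filled points passed at a limma adjusted p under 0.05 over all genes, and blue bars are list medians. With Ang II the median siRNA difference was 0.29 for ligands and 0.27 for adaptors, against 0.13 for the integrin genes.

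The smooth muscle markers also differed between siRNA arms, beside these groups. Of 10, 7 were higher and 1 lower in siGiver cells in PBS (median 0.40 log2). With Ang II, 8 were higher and 1 lower (median 0.52 log2). Of all genes, 16% were higher and 19.1% lower in PBS, and 19.5% higher and 24.8% lower with Ang II. The fibroblast markers had none called in PBS and 3 of 7 higher with Ang II. Of the 3 macrophage markers tested, Cd68 and Cd14 were lower in siGiver cells with Ang II and none was called in PBS. The part of these markers in the differences between arms was not tested.

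Genes whose levels over the 8 arrays followed each integrin gene most closely were taken from 4547 genes whose group means spanned at least 0.3 log2. Itga5 was followed most closely by Rnf144b (Pearson r = 0.994) and Txnrd1 (r = 0.993), and Itga7 by Dusp1 (r = 0.99) and Tnfaip3 (r = 0.987). Itgb5 was followed by Ppp1r14b (r = 0.992) and Nme1 (r = 0.99), Itga1 by Nrg1 (r = 0.977) and Zmiz1 (r = 0.977), Itga8 by Golm2 (r = 0.98) and Col14a1 (r = 0.966), and Itgav by Plcl1 (r = 0.958) and Prune2 (r = 0.951). These are descriptions over 8 arrays that share their normalization and fall into 4 groups, picked as the highest of that many. Itgb1 and Itgb3, with group means spanning 0.25 and 0.19 log2, were not matched.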

How the data were processed

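Total RNA (5 ug per array) was hybridised to 8 Affymetrix arrays, 2 in each group that the labels give. The deposited values are log2 expression, 1 per probe set and array. RMA and Partek are listed in the submitters' processing notes, and their settings and versions are not stated there. Probe sets differ in how brightly they report a transcript, so levels of different probe sets were compared only to choose the brightest per gene and to filter, and were added only in the marker sums.

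The table holds 31099 probe sets, of which 57 are controls. GEO's platform annotation gives 20832 of them 1 symbol and 436 several, and 20764 symbols were looked up by gene identifier. Probe sets averaging under the 30th percentile (4.81 log2) were dropped. For each symbol the brightest remaining probe set was used, leaving 11377 genes. Group means were estimated with limma 3.58.1 (R 4.3.3) from the 8 arrays together, with 4 residual and 3.53 prior degrees of freedom and Benjamini-Hochberg adjustment over all genes. Errors are SE of the fit. In simulated data of 11377 genes, the siRNA test in PBS found 88% of 1.5-fold changes and 60% of 1.25-fold changes. The other simple comparisons found 84% to 88% and 40% to 46%. The interaction test found 62% of 1.5-fold changes and 16% of 1.25-fold changes. Each fold was given to 50 genes, far fewer than the 35% of genes called in PBS in the data. The simulated spread was drawn from the limma fit, so these shares may not hold for the data.

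All 8 members were named, with up to 4 list genes of smallest p per comparison and the 2 genes most correlated with each member. Fn1 was added after its values were seen. The members and lists were chosen with earlier results of these data known. Alternatives were other filters, probe set rules, normalizations, moderation, the 2 groups alone, a replicate block and leaving out each array. Same-numbered arrays deviated from their group means with correlations between -0.17 and 0.10, so the numbers were not used as pairs.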

Additional observations from a re-analysis of the deposited data

Results flagged for a closer look

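For 3 integrin genes the interaction term of the limma fit passed. It tests directly whether the siRNA difference is the same in PBS and with Ang II. For Itga5 the siGiver minus siNTC difference was larger with Ang II than in PBS by 0.74 log2 (limma adjusted p = 0.00734), and it was positive under both treatments. For Itga7 it was larger by 0.43 log2 (limma adjusted p = 0.0123), positive with Ang II and negative in PBS. For Itga8 it was larger by 0.33 log2 (limma adjusted p = 0.0389), and by 0.293 to 0.373 log2 over the alternatives. The Itga8 call was lost without the filter, with every probe set tested on its own, and when any 1 of the 8 arrays was left out. The dimmer probe sets past the filter gave interactions of 0.36 log2 for Itga7 and 0.29 log2 for Itga8, and neither passed. Groups of 2 arrays are too small for a test of single arrays that stand apart.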

How the results depend on the processing

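Of the 18 integrin differences that passed, none changed sign under any alternative, 14 kept their call under every alternative that used all arrays of the comparison, and 12 also kept it without each array in turn. With all arrays used, the count of integrin genes changed moved by more than 1.5 times in these cases. Ang II in siGiver cells gave 5 with the mean of the probe sets and 5 with trended and robust moderation (3 as reported), and the interaction gave 6 with the 50th percentile filter and 5 with trended and robust moderation (3 as reported). Leaving out 1 array gave 4 to 5 for the siRNA in PBS, 4 to 5 with Ang II, 2 to 3 for Ang II in siGiver cells, 1 to 2 in siNTC cells (1 without siNTC Ang II replicate 2) and 2 to 3 for the interaction. The single array left in such a group is assumed to vary like the other groups. The replicate block left all 5 counts as they were (5, 5, 3, 2 and 3), and changed no call.

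Over all genes, every probe set on its own gave 6042 calls for the siRNA in PBS (3986 as reported) and 7751 with Ang II (5037). Ang II in siGiver cells (1852) gave 2802 with trended and robust moderation and 1211 from the 2 groups alone, in siNTC cells (698) 420 without the filter, 1066 with the 50th percentile filter, 1496 with trended and robust moderation and 422 from the 2 groups alone, and the interaction (707) 467 without the filter and 1490 with trended and robust moderation. Leaving out 1 array gave 866 to 1740 calls for Ang II in siGiver cells, 226 to 526 in siNTC cells and 356 to 435 for the interaction. With array medians subtracted, Ang II in siGiver cells gave 1164 higher and 561 lower, against 1036 and 816 as reported.

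Sign changes concerned differences that had not passed. The siRNA difference of Itgb1 with Ang II turned to 0.040 with the mean of its probe sets, 0.018 with cyclic loess and 0.013 with medians subtracted, and the Ang II difference of Itga8 in siGiver cells to 0.048 with the mean of its probe sets. Leaving out 1 array in turn, the siRNA difference in PBS ranged from -0.145 to 0.206 for Itgb3. With Ang II it ranged from -0.070 to 0.147 for Itgav, -0.014 to 0.002 for Itgb1 and -0.080 to 0.145 for Itgb3. The Ang II difference in siNTC cells ranged from -0.097 to 0.026 for Itga5 and -0.023 to 0.329 for Itgb3, and the interaction from -0.174 to 0.178 for Itgb3 and -0.017 to 0.105 for Itgb5. The cause was not tested. With 2 arrays per group and a signal close to the filter, Itgb3 is measured least precisely.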
